A study of Homo sapiens with 38 samples.

Results

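The Sp1 DBD Mutant and Sp1 WT lines were compared through their mouse anti-FLAG CUT&RUN peak lists, which hold the regions called in both of 2 replicates of each line. The members were all peaks of both lists, 94 for the mutant and 5151 for Sp1 WT, out of 27085 peaks in the 19 lists of the series, and they come from 4 of its 38 samples. Both proteins were SNAPf-tagged transgenes with a nuclear localization signal and a C-terminal 3xFLAG tag, placed at the AAVS1 safe-harbor locus of U2OS cells (a human osteosarcoma line) and switched on by doxycycline. Doxycycline was given at 1 µg/ml for 36 h before and 36 h after the cells were sorted for transgene expression. The host was a single U2OS clone in which both copies of the endogenous SP1 gene carry a V5-Halo tag. Endogenous Sp1, without a FLAG tag, was therefore present in every line, the controls included. Sp1 WT is the full-length factor. Sp1 DBD Mutant is described in the study as a disease-associated frameshift that keeps the N-terminal intrinsically disordered region and leaves only a single zinc finger of the DNA-binding domain. The study reports no detectable CUT&RUN peaks for this mutant, although it colocalized with Sp1 in live-cell proximity measurements and imaging. The 94 peaks used here are those of its deposited list. The controls for both were SNAP-NLS, the tag and localization signal without any DNA-binding domain (295 peaks), and the parental line without a transgene, CTRL (22 peaks with the same antibody). The lists hold peaks and no read counts, so library depth was not analysed here, and no level of the transgenic proteins can be read from them.

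Sp1 is a ubiquitous activator of the SP and KLF family whose zinc fingers read GC boxes, short G- and C-rich words that are common at CpG-island promoters of housekeeping and growth genes. Its disordered, glutamine-rich N-terminal part contacts the transcription machinery. CUT&RUN maps a protein by tethering micrococcal nuclease to it through an antibody and sequencing the DNA that is cut free. Satellite DNA, the tandemly repeated sequence of centromeres and the heterochromatin beside them, is made of many near-identical copies.

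A few sequences show what lay under the peaks, chosen as the strongest promoter peaks of Sp1 WT and as examples of each kind of sequence in the mutant list. For Sp1 WT, the 4 strongest promoter peaks that lay in single-copy sequence, held a GC box near the summit and touched no annotated exon within the printed window are shown as 201 bases of hg38 centred on the summit, plus strand, with each GC box (GGGCGG or its complement CCGCCC) in capitals. They lie at SIN3A (chr15:75451761-75451961), which encodes a co-repressor scaffold, SLC27A1 (chr19:17469997-17470197), a fatty acid transporter, RAB4B (chr19:40778491-40778691), a small GTPase of endosomes, and SLC17A7 (chr19:49442792-49442992), a vesicular glutamate transporter. The summits at SIN3A, SLC27A1 and RAB4B fell in an intron of an annotated transcript, and that at SLC17A7 between genes.
SIN3A: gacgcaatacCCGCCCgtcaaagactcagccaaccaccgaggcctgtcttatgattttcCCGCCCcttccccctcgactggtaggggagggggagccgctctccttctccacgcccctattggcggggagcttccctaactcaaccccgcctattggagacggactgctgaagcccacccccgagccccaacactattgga
SLC27A1: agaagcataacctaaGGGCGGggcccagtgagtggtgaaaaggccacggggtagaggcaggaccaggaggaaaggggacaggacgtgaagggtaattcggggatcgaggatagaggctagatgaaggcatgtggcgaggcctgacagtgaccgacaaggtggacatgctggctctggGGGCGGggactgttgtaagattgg
RAB4B: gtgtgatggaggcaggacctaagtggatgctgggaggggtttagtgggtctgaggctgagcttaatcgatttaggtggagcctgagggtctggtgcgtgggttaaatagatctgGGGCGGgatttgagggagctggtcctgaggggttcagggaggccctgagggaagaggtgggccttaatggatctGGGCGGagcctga
SLC17A7: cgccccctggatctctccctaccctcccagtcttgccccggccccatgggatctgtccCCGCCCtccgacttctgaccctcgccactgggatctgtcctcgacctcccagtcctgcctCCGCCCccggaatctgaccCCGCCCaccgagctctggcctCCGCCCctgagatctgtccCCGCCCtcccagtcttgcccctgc

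For Sp1 DBD Mutant, a single peak of each of the 3 kinds of sequence found in its list is shown, also from the plus strand of hg38. None of these windows lies in an annotated gene. The first is the highest ranked mutant peak (chr10:41851750-41851950), with GGAAT or its complement ATTCC in capitals.
GGAAT-rich: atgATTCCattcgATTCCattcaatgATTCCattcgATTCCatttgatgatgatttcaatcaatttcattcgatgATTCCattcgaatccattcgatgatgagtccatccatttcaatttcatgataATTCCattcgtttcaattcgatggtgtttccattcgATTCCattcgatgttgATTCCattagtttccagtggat
The second is the summit of the highest ranked peak whose sequence repeats at a shift near 171 or 342 bp (chr10:39633804-39633923), beside the stretch 340 bp further on (chr10:39634144-39634263). Capitals mark the bases that are equal at the same place of both stretches, 90 bases or 75%.
At the summit: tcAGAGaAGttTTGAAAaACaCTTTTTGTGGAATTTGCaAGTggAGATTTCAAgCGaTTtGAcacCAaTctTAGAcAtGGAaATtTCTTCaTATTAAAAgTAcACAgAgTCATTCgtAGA
340 bp on: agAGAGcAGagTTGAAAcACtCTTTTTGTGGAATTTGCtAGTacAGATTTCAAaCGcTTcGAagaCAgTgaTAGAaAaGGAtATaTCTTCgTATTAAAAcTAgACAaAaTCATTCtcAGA
The third comes from the AT-rich peak with the best self-match at a shift of 42 bp (chrUn_KI270333v1:1594-1677), beside the stretch 42 bp further on (chrUn_KI270333v1:1636-1719), and 79 bases or 94.05% are equal.
At the summit: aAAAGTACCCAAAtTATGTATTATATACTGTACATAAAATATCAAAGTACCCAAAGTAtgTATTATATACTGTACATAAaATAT
42 bp on: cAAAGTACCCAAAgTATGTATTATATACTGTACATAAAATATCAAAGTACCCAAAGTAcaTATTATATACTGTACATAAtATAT

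No mutant peak was called at a transcription start. None of the 94 mutant summits lay within 1000 bp of an annotated start, a count of 0 that allows a share of up to 3.19%, whereas 4320 of 5151 Sp1 WT summits did (83.9%, 95% Wilson interval 82.8 to 84.8%). The difference of 83.9 percentage points was called by a two-sided Fisher's exact test (p = 2.51e-73, adjusted p = 1.01e-72 over 4 tests), which compares peaks of 2 lists and not independent cultures. Neighbouring peaks of a satellite array are not independent of each other, so this p is too small. SNAP-NLS had 0 of 295 peaks at a start, which allows up to 1.02%. Both of these counts were 0, so they say nothing of whether the mutant and SNAP-NLS differ below these limits. The mutant summit closest to any start was 15925 bp away from it, on chromosome 2. Of the 94 mutant peaks, 19 lay over 10000 and up to 100000 bp from a start, 53 lay further away, and 22 lay on sequences without an annotated start. The median distance of the 72 peaks with a start on their sequence was 0.633 Mb for the mutant, against 129 bp for Sp1 WT and 0.628 Mb for SNAP-NLS. No mutant peak had its summit in an annotated gene, while 3308 Sp1 WT peaks did (64.2%). At the level of genes, 4596 of 20046 protein-coding genes had an Sp1 WT summit within 1000 bp of a start, and 0 had a mutant summit.

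**Figure D1:**
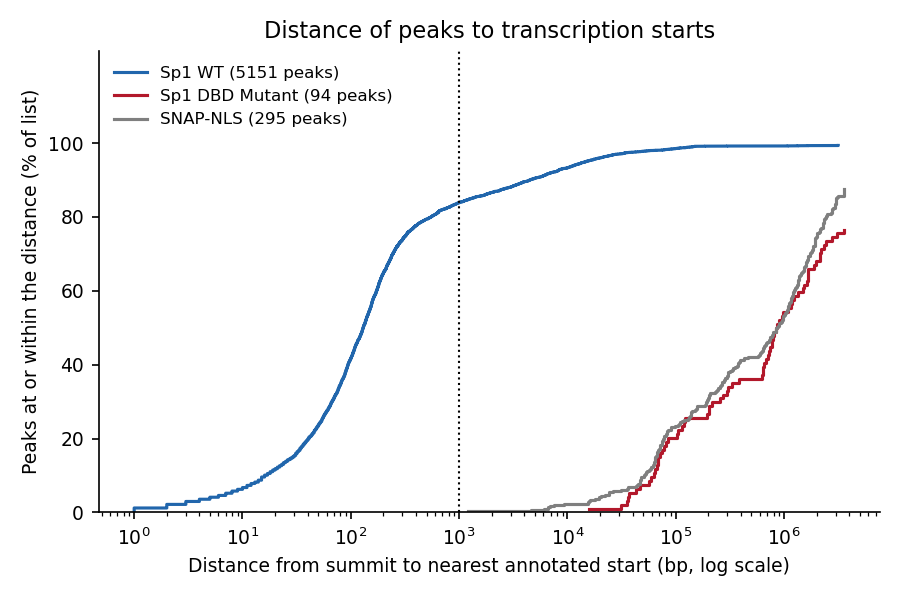
Share of each list (vertical axis, %) with its summit at or within a given distance of the nearest annotated transcription start (horizontal axis, bp, log scale), for Sp1 WT (blue), Sp1 DBD Mutant (red) and SNAP-NLS (grey). The dotted line marks 1000 bp, where Sp1 WT reached 83.9% and both other lists 0. Lines end below 100% where peaks lie on sequences without a start.

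The mutant peaks were concentrated on few sequences, as were those of SNAP-NLS. The 3 fullest sequences of each list held 50% of mutant, 52.5% of SNAP-NLS and 26.5% of Sp1 WT peaks. Chromosome 10 held 25 of the 94 mutant peaks (26.6%), between 39633806 and 42102696, a span of 2.47 Mb at the centromere. It held 18.6% of SNAP-NLS peaks, 3.96% of Sp1 WT peaks and 4.52% of the reference bases. Chromosome 1 followed with 12 mutant peaks (12.8%, against 22.7% of SNAP-NLS peaks). The unlocalized chromosome 1 sequence KI270709v1 had 10, chromosome 13 had 9, chromosome 4 had 7, chromosome 20 had 5 and chromosome 2 had 4. Sequences other than chromosomes 1 to 22 and X held 22 mutant peaks (23.4%, 95% Wilson interval 16 to 32.9%). They held 33 Sp1 WT peaks (0.641%) and 44 SNAP-NLS peaks (14.9%), and 7 of these SNAP-NLS peaks lay on chromosome Y. Of the 22 mutant peaks, 12 lay on sequences that are assigned to chromosome 1 or 17 but not localized on it. The other 10 lay on sequences assigned to no chromosome. The other mutant peaks lay on chromosomes 7, 9 and 22, with 2 each, and on 5, 11, 15 and 18, with 1 each. Of the 23 assembled chromosomes with Sp1 WT peaks, 10 (3, 6, 8, 12, 14, 16, 17, 19, 21 and X) held no mutant peak, apart from 2 on the unlocalized chromosome 17 sequence KI270729v1, whereas 2355 Sp1 WT peaks (45.7%) lay on them. Chromosome 19, the richest in genes for its length, had 491 Sp1 WT peaks and 0 mutant peaks. SNAP-NLS also had 0 there, as on chromosomes 8, 14 and X. When peaks of a list closer than 100 kb were joined, the mutant's 94 peaks made 47 places, Sp1 WT's 5151 made 3098 and SNAP-NLS's 295 made 86. With peaks joined within 1 Mb the mutant was left with 22 places and Sp1 WT with 781. No test was made of these counts, since neighbouring peaks of a satellite array are not independent. In 85 of the 94 mutant windows at least 50% of the 31-base words occurred more than 1 time in the reference. The sequence named for a peak is therefore where its reads were placed, and may not be where they came from.

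**Figure D2:**
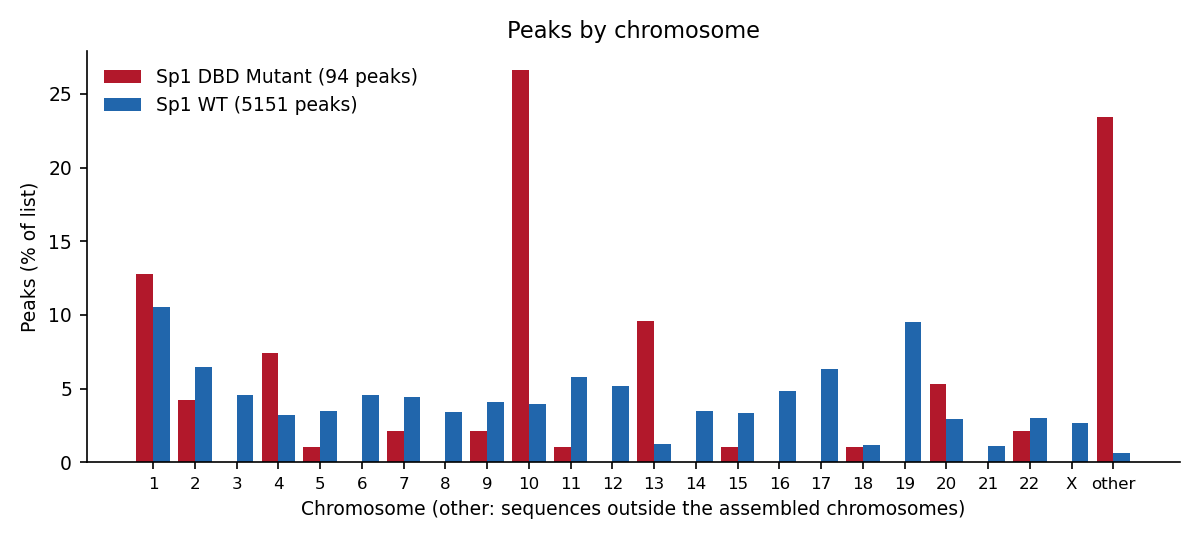
Share of peaks (vertical axis, % of the list) on each chromosome (horizontal axis) for Sp1 DBD Mutant (red bars) and Sp1 WT (blue bars). The last pair of bars sums the sequences outside the assembled chromosomes, 23.4% of mutant and 0.641% of Sp1 WT peaks, and the tallest mutant bar is chromosome 10 with 26.6%.

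Every mutant peak fell into one of 3 kinds of satellite-like sequence. The kinds were defined after the sequences had been seen, so their counts are descriptions and carry no test. In 51 peaks (54.3%) the 1000 bp around the summit matched itself best at a shift within 4 bp of 171 or 342 bp, the length of 1 or 2 units of alpha satellite, the main repeat of human centromeres. The 17-base box that the centromere protein CENP-B recognises was found on either strand in 47 of these 51 windows, with a median of 2 boxes, and in 30 of all 5151 Sp1 WT windows and 149 of 295 SNAP-NLS windows. A further 33 peaks (35.1%) held between 34 and 117 GGAAT or ATTCC words in 1000 bp, the repeated unit of satellites 2 and 3 of pericentromeric heterochromatin, and the same cutoff of 20 words was reached by 47 Sp1 WT and 135 SNAP-NLS windows. The last 10 peaks (10.6%) were AT-rich, with 19.4 to 27.4% G and C in the 201 bases around the summit, and in 9 of them the best shift was 42 bp, as in the sequences printed above. The alpha-like peaks lay on 13 sequences, led by chromosome 10 with 13 and chromosomes 1 and 13 with 9 each. The GGAAT-rich peaks lay on 6 sequences, 12 of them on chromosome 10 and 10 on KI270709v1. The strongest GGAAT-rich peak of Sp1 WT (chr5:1325940-1329188, 3249 bp wide) was ranked 6 in its list. Its −log10 of the peak caller's p-value was 114 and 149 in the 2 replicates. It stood apart from its kind: the 47 such Sp1 WT peaks had a median value of 17.5, an upper quartile of 20.8 and a median width of 206 bp. It met the cutoff of 20 words, and whether it is satellite 2 or 3 was not tested. In the other lists, 60 of 5151 Sp1 WT peaks belonged to any of the 3 kinds, and 292 of 295 SNAP-NLS peaks did. Of these 60, 1 had its summit within 1000 bp of a start. Among the 10 alpha-like Sp1 WT windows G and C reached 78.1%, against a median of 38.3%. The kinds defined by these rules may therefore hold sequence that is not satellite.

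Repetition measured without regard to the kind of repeat also differed from Sp1 WT. At least 70% of the bases equalled the base 1 shift away in 28 of 94 mutant windows (29.8%, 95% Wilson interval 21.5 to 39.7%) and in 24 of 5151 Sp1 WT windows (0.466%, interval 0.313 to 0.692%), a difference called by two-sided Fisher's exact test (p = 4.79e-37, adjusted p = 9.58e-37). The test treats peaks as independent, which neighbours in an array are not, so this p is too small. The count depends on the definition: it was 65 against 130 in windows of 400 bp, 10 against 12 at a self-match of 80% and 14 against 20 with shifts up to 200 bp. The share in SNAP-NLS was 36.9% (109 of 295), and the mutant's lower value by 7.16 points was not called (p = 0.217, adjusted p = 0.29, Fisher's exact test). The windows of mutant summits had a median of 37.1% G and C, those of Sp1 WT 66.7% and those of SNAP-NLS 38.3%. No mutant window and no SNAP-NLS window held GGGCGG or its complement, whereas 3614 Sp1 WT windows did (70.2%). For comparison, 39.8% of RefSeq promoter windows of the same length (GRCh38.p14) hold this word. At least 50% of the 31-base words occurred more than 1 time in the reference in 85 of the 94 mutant windows, and the median word occurred 61.5 times over all mutant peaks, 835 times in the alpha-like ones, 34 times in the GGAAT-rich ones and 1 time in the AT-rich ones. In Sp1 WT 352 of 5151 windows were repeated in this sense. How many places a read pair fits was not measured. The centromere arrays of hg38 are themselves modelled sequence.

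**Figure D3:**
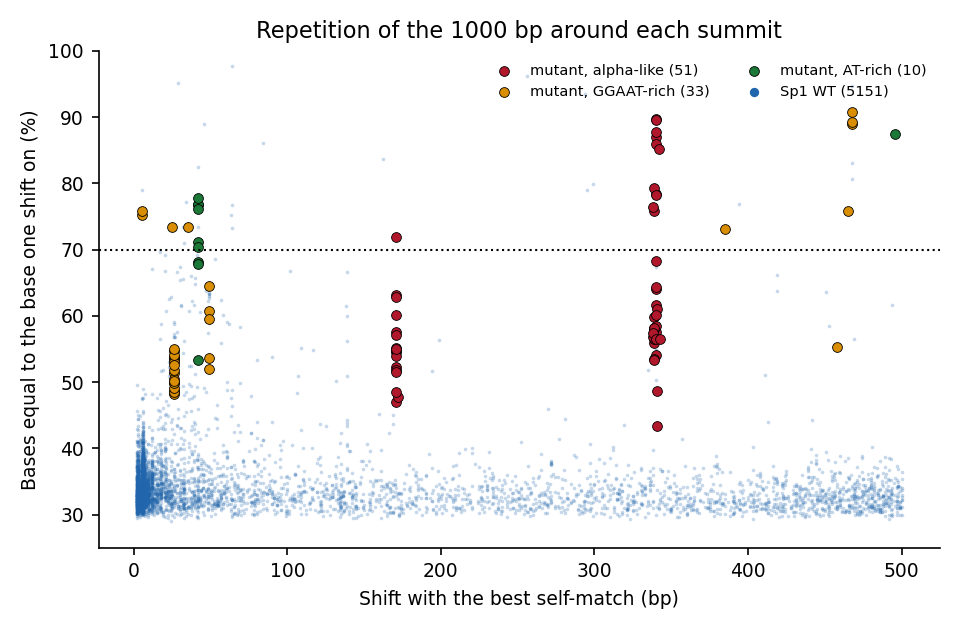
Best self-match of the 1000 bp around each summit: the shift in bp (horizontal axis) against the percent of bases equal to the base 1 shift on (vertical axis), with Sp1 WT peaks as small blue dots and mutant peaks as large circles coloured by kind. The 51 alpha-like mutant peaks stand in columns near 171 and 342 bp, most AT-rich ones at 42 bp, and most Sp1 WT peaks lie under 40%; the dotted line is at 70%.

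No Sp1 WT promoter peak, the strongest included, had a counterpart in the mutant. A promoter peak was an Sp1 WT peak with its summit within 1000 bp of a protein-coding start, and there were 3988 of them, 77.4% of the list. The background for any such overlap was low, since 12 of all 5151 Sp1 WT peaks shared at least 1 bp with a mutant peak (0.233%, 95% Wilson interval 0.133 to 0.407%). The 100 strongest promoter peaks had a −log10 p of 66.4 to 153 (the peak caller's p-value, as the lower of the 2 replicates). None of them overlapped a mutant peak, a count of 0 that allows up to 3%. The share over all Sp1 WT peaks lies below that limit, so this 0 is not particular to the strongest peaks. Of all 3988 promoter peaks, none overlapped a mutant peak either, which allows up to 0.0752%. A mutant peak within 10 kb was also found for 0 of the 100. The closest of the 100 to a mutant peak was the promoter of FAM72C on chromosome 1 (chr1:143971335-143973613), 0.705 Mb away, and 11 of the 100 had a mutant peak within 10 Mb.

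The 25 strongest promoter peaks in single-copy sequence spanned a range of functions. The highest was at APLP1, an amyloid precursor-like protein (chr19:35868160-35872223, 4064 bp wide), with a −log10 p of 129 and 160 in the first and second listed replicate, whose order against the labels is not recorded. It was followed by BRD3OS on chromosome 9, opposite the bromodomain gene BRD3, with 112 and 159, and by SIN3A with 110 and 138. SLC27A1 stood at 109 and 163, RAB4B at 106 and 134, and SLC17A7 at 100 and 122. HDAC6, a cytoplasmic deacetylase, stood at 89.3 and 108, BRPF1, a reader subunit of histone acetyltransferase complexes, at 87.4 and 105, and NLK, a kinase of the Wnt pathway, at 89.4 and 112. The others were ZFP41, CCDC9, CELF5, FAM228B, EEPD1, RNF31, FBXL12, TMEM276, PTPRU, SMURF1, CNGA4, ASAP3, NEK8, IMPA2, PRX and CACFD1, down to 85.2. Of the 25 peaks, 8 were on chromosome 19, and 19 held a GC box in the 201 bases at the summit. By position 12 summits lay in introns, 9 between genes and 4 in exons of annotated transcripts. None of the 25 had a peak of the mutant, of SNAP-NLS or of CTRL with mouse anti-FLAG. The same 25 places carried a peak of the isolated Sp1 DBD in 24 cases, and a peak of endogenous Sp1 in the parental line in 20 cases with rabbit and 23 cases with mouse anti-V5.

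Other constructs placed the mutant's count among the lists of the series. Of the 100 strongest Sp1 WT promoter peaks, 93 overlapped a peak of the Sp1 DBD, 86 one of EWS IDR-Sp1 DBD, in which the disordered region comes from EWS, 5 one of CTCF DBD, the zinc fingers of another factor, and 4 one of Sp1 IDR-CTCF DBD. The constructs without a zinc-finger domain, SNAP-NLS, LacI (a bacterial repressor) and Sp1 IDR-LacI, overlapped 0, as did the mutant. These lists differ in length. With only as many of its highest ranked peaks as the mutant list holds, 94, the Sp1 DBD overlapped 30 of the 100, EWS IDR-Sp1 DBD 17, Sp1 IDR-CTCF DBD 3 and CTCF DBD 0, a comparison added after the data had been seen. Endogenous Sp1, mapped through its V5 tag in the Sp1 WT line, overlapped 88 with the rabbit and 94 with the mouse antibody. No V5 list of the mutant line was used here, so endogenous Sp1 was not compared in it.

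Classic Sp1 targets and the SP factor genes had no mutant peak, as no protein-coding gene had. Of 27 listed genes, 17 had an Sp1 WT summit within 1000 bp of a protein-coding start, 0 had one of the mutant, which allows up to 11.1%, and 0 had one of SNAP-NLS. Over all protein-coding genes the share was 22.9% for Sp1 WT, against 63.0% of the list, and 0 for the mutant and SNAP-NLS, so the mutant's count says nothing particular to these genes. The strongest was at SP4, a relative of Sp1 (−log10 p 63.7 and 95.7 in the 2 replicates), followed by HSPA1A, an inducible heat shock chaperone (45.8 and 62.9), POLR2A, the largest RNA polymerase II subunit (33.1 and 28.8), and E2F1, a cell cycle regulator (27.8 and 42.5). Among other targets, TK1, for thymidine kinase, stood at 25.8 and 54.6, and VEGFA, for the angiogenic growth factor, at 19.7 and 29.5. The weakest was at IGF1R, a growth factor receptor, with 11.8 and 32.9. Other genes of the list with a peak were TYMS, CDKN2D, TGFBR1, TGFBR2, ODC1, MT2A, SP2 and SP3. No Sp1 WT peak was called at POLA1, CDKN1A, CDKN1B, FASN, EGFR, CCND1, MDM2, CTSD or SP1 itself, although the SP1 start carried a peak of the Sp1 DBD and of endogenous Sp1 with both V5 antibodies. The nearest mutant peak was 2.48 Mb from E2F1, 4.80 Mb from EGFR and further from the others on a shared chromosome.

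The 13 mutant peaks that did overlap Sp1 WT lay in satellite sequence. They matched 12 Sp1 WT peaks, because a pair on the unplaced sequence KI270333v1 fell into the same 882 bp Sp1 WT peak. Of the 13, 8 were GGAAT-rich, 3 alpha-like and 2 AT-rich, and 6 lay on KI270709v1, 3 on chromosome 10, 2 on KI270333v1, 1 on KI270411v1 and 1 on chromosome 1. The nearest start on chromosome 10 was that of KSR1P1, a pseudogene, at 0.298, 1.08 and 0.0752 Mb, and on chromosome 1 that of LINC01691, a long noncoding RNA, at 3.07 Mb. The other sequences carry no annotated start. In the Sp1 WT list the 12 peaks ranked between 1803 and 4881 of 5151, so that the 1287 highest ranked peaks, with a −log10 p of at least 28.3, held none of them. All 12 were in repeated sequence. At a stricter irreproducible discovery rate of 0.01 (the lists were cut at 0.1), the overlap was 0. That cut kept 2561 Sp1 WT peaks and all 94 mutant peaks, so it was stricter for the Sp1 WT list alone.

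At these shared sites the merged value was higher in Sp1 WT at 13 of 13, but the replicates of both lines overlapped at 6 of them. The mutant's highest ranked peak (chr10:41851776-41851925) had a −log10 p of 18.3 and 15.6 in the 2 mutant replicates and of 23.7 and 23.5 in the 2 Sp1 WT replicates. The second (KI270709v1, 12346 to 12493) had 16.4 and 15.5 in the mutant against 28.9 and 21.5 in Sp1 WT. On chromosome 1 (chr1:124650482-124650620) the values were 18.4 and 13.03 against 17.7 and 18.5, where the groups overlap. At 2 sites the higher mutant replicate exceeded both Sp1 WT replicates, as at the peak ranked 22 with 21.98 and 9.49 against 14.7 and 20.1. The weakest of the mutant list (KI270709v1, 3675 to 3883) had 3.40 and 12.7 against 9.41 and 15.01. Taken as the lower of the 2 replicates, as the merged list reports it, the gap was 2.12 to 14.2 units. The lists were not scaled to each other for depth, and their floors differ: the lowest merged value is 8.12 in the Sp1 WT list and 3.40 in the mutant list. The mutant peaks ranked 3 and 4, both on chromosome 10 and at no Sp1 WT peak, had 14.997 and 13.1 (nearest start ENSG00000233832, 850860 bp away) and 16.9 and 13.1 (nearest start KSR1P1, 58757 bp away). The same places were peaks of constructs that lack a zinc-finger domain: 11 of the 13 overlapped a SNAP-NLS peak and 13 of 13 overlapped one of SNAP-NLS, LacI, Sp1 IDR-LacI or CTRL. Without mutant peaks that overlap SNAP-NLS or CTRL, 2 of 5151 Sp1 WT peaks (0.0388%) were left with a mutant peak.

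Most mutant peaks recurred in lists of constructs without a zinc-finger domain. Of these, SNAP-NLS is a control, while Sp1 IDR-LacI is a test chimera of the study that carries the Sp1 N-terminal disordered region, as the mutant does. Of the 94, 56 overlapped a SNAP-NLS peak (59.6%, 95% Wilson interval 49.5 to 68.9%), 51 a LacI peak (54.3%) and 47 an Sp1 IDR-LacI peak (50.0%). Sp1 WT overlapped 13 (13.8%, interval 8.26 to 22.2%) and the Sp1 DBD 13. These latter lists are far longer, but 5091 of the 5151 Sp1 WT peaks belonged to none of the 3 kinds. The Sp1 WT list also ends at a −log10 p of 8.12, above 58 of the 94 mutant peaks, while that of SNAP-NLS ends at 5.47. The shares are thus not taken at an equal cut. The study describes peak calling against merged control replicates, so the lists may share their control reads. Seen from the other lists, the 56 SNAP-NLS peaks at a mutant peak were 18.98% of that list. CTRL overlapped 0 of the 94 with mouse and 0 with rabbit anti-FLAG, lists of 22 and 54 peaks. In all, 77 of 94 (81.9%, interval 72.9 to 88.4%) overlapped a peak of SNAP-NLS, LacI, Sp1 IDR-LacI or CTRL with the same antibody. By kind, these were 32 of 33 GGAAT-rich, 10 of 10 AT-rich and 35 of 51 alpha-like peaks. Only 16 peaks appeared in no other of the 9 mouse anti-FLAG lists, and 15 in none of the 18 other lists of any antibody. All 15 were alpha-like, with 3 each on chromosomes 1, 10 and 13, 2 each on chromosomes 4 and 9, and 1 each on chromosomes 20 and 22. By sequence the sharing was wider: 89 of 94 mutant windows had at least a single 31-base word in common with a SNAP-NLS window and 72 with a Sp1 WT window, 59 of which did not overlap a Sp1 WT peak. No Sp1 WT promoter window had a word in common with a mutant window.

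Mutant peaks were narrow. Their median width was 228 bp (quartiles 161 and 327, range 138 to 1078), against 941 bp for Sp1 WT (678 and 1308, range 137 to 6240) and 206 bp for SNAP-NLS (163 and 315). In the separate replicates behind the lists the medians were 176 and 184 bp for the mutant and 705 and 905 bp for Sp1 WT, so the gap between the lines was larger than that between replicates. Of the mutant peaks, 86 of 94 were under 500 bp wide (91.5%), and of the Sp1 WT peaks 525 of 5151 (10.2%). By kind, the median was 183 bp in the alpha-like, 291 bp in the GGAAT-rich and 389 bp in the AT-rich mutant peaks. In Sp1 WT it was 155 bp in 10 alpha-like, 206 bp in 47 GGAAT-rich and 863 bp in 3 AT-rich peaks, so the mutant peaks were wider in the first pair of kinds and narrower in the AT-rich one. In repeated sequence of any kind the medians were 209 bp in the mutant and 793 bp in Sp1 WT. Among the peaks of the 3 satellite-like kinds alone, a comparison added after the data had been seen, the median was 228 bp in the mutant and 203 bp in Sp1 WT (60 peaks), and the direction turned. The strongest 100 Sp1 WT promoter peaks had a median width of 1735 bp.

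**Figure D4:**
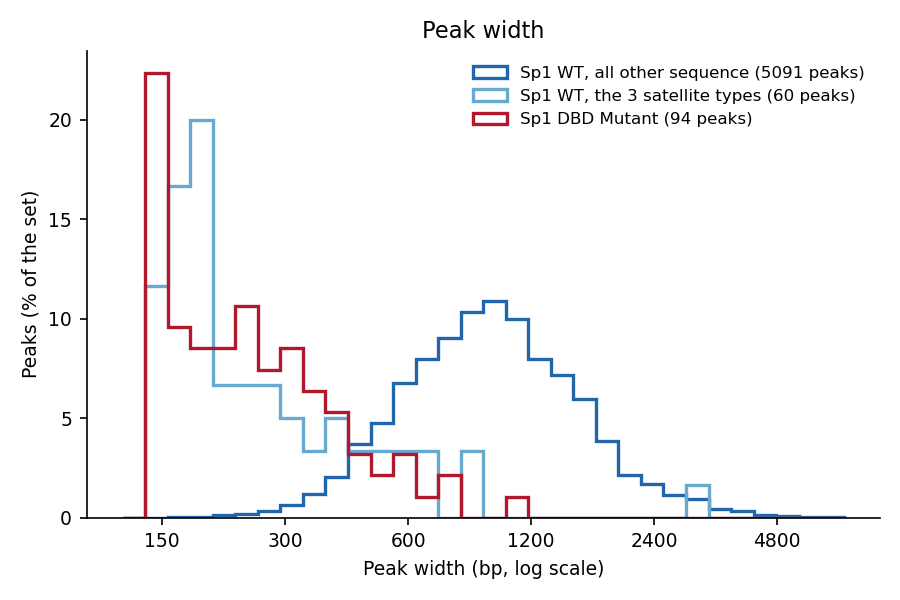
Distribution of peak width (horizontal axis, bp, log scale; vertical axis, % of the set) for mutant peaks (red), Sp1 WT peaks of the 3 satellite-like kinds (light blue) and all other Sp1 WT peaks (dark blue). The first 2 sets pile up near 150 to 300 bp, with medians of 228 and 203 bp, and the Sp1 WT peaks outside satellite sequence centre near 1000 bp.

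The called mutant peaks also had low −log10 p-values, and their order in the 2 replicates was unrelated. Their merged −log10 p ran from 3.40 to 15.6 with a median of 7.35, that of Sp1 WT from 8.12 to 153 with a median of 18.7, and that of SNAP-NLS from 5.47 to 19.7 with a median of 8.30. No mutant peak reached the Sp1 WT median, 58 of 94 lay below the weakest Sp1 WT peak, and 3239 Sp1 WT peaks (62.9%) lay above the strongest mutant peak. Within satellite-like sequence the Sp1 WT median was 17.7, and 41 of 60 such peaks exceeded the strongest mutant peak. These comparisons are not made at an equal cut. The Sp1 WT list ends at 8.12, with a lowest −log10 IDR of 0.9995, and the mutant list at 3.40, with a lowest −log10 IDR of 2.74. The lists were also not scaled to each other for depth. How much of the gaps in −log10 p follows from the cuts or from depth was not tested. By kind, the mutant medians were 7.29 for alpha-like, 7.45 for GGAAT-rich and 7.87 for AT-rich peaks. Across peaks, the values of the 2 replicates had a Spearman's rho of -0.0432 in the mutant (94 peaks), 0.425 in SNAP-NLS (295 peaks) and 0.817 in Sp1 WT (5151 peaks). The median gap between the replicates was 2.97 units in the mutant, 3.23 in SNAP-NLS and 12.4 in Sp1 WT. Peaks of a list share their libraries, so these are descriptions. The peaks were also kept by agreement between the same 2 replicates, with unequal effect. An IDR of 0.01 was met by all 94 mutant, 48 SNAP-NLS and 2561 Sp1 WT peaks. The rho values of the 3 lists are therefore not directly comparable. The value was higher in the first listed replicate in 50 of 94 mutant peaks and in 158 of 5151 Sp1 WT peaks, so the 2 Sp1 WT replicates differed in strength across nearly the whole list.

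**Figure D5:**
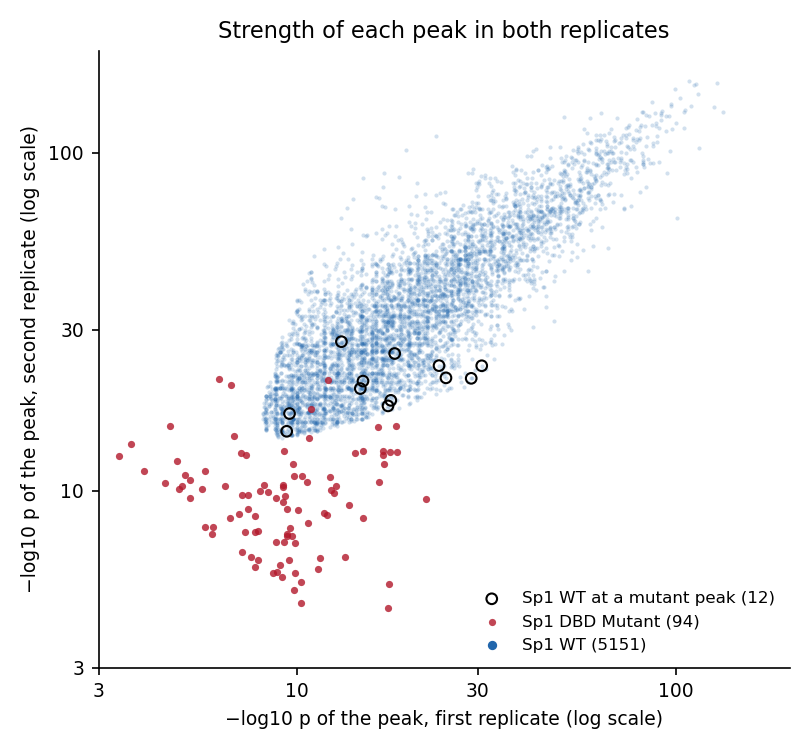
The −log10 p of each peak in the first (horizontal axis) and second (vertical axis) listed replicate, both on log scales, for Sp1 WT (blue), Sp1 WT peaks at a mutant peak (black circles) and Sp1 DBD Mutant (red). The mutant peaks form a cloud without order at 3.40 to 21.98, and the 12 shared Sp1 WT peaks lie in the lower part of the Sp1 WT band.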

How the data were processed

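CUT&RUN with mouse anti-FLAG was done on 2 replicates per line. As the study describes, reads were trimmed with Cutadapt 2.6, aligned to hg38 with Bowtie2 2.3.5.1, deduplicated with SAMtools 1.9 and called with MACS3 (given as 2.2.7.1) at p 0.001 against merged controls. The authors merged the replicates by IDR at 0.1, so each deposited list holds −log10 p-values per replicate, a −log10 IDR score and summit offsets, with no counts. No filter for reads that map to many places was described. A published CUT&RUN blacklist for hg38 was named for the coverage files. Deposited comparisons of coverage between samples were not used.

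Lists were read with pandas 2.3.3, and summits were annotated with GENCODE 44 (any transcript start) and the hg38 sequence. Overlap needed 1 bp. Proportions were tested by two-sided Fisher's exact test (SciPy 1.17.1) at 0.05, with Benjamini-Hochberg adjustment over 4 tests. Self-match was taken over shifts of 2 to 500 bp. Summit windows spanned 100 bp to either side. The code was tested on simulated data. The genes named were those of the 25 strongest promoter peaks outside repeated sequence, the nearest starts of shared and top 5 mutant peaks, and a list of 27 Sp1 targets and SP factors, some of which are not reported here. The members and lists were chosen with earlier results of these data known. The study calls its replicates independent biological replicates. P-values and intervals here cover peak counts within the merged lists, not the spread between replicates.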

Additional observations from a re-analysis of the deposited data

How the results depend on the processing

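No paired analysis was possible because each list was made from both replicates together, and leaving out a replicate was not possible for the same reason. The 9 alternatives for the share at a transcription start against Sp1 WT, and the 5 for the tandem share against each list, kept their side of the threshold at an unadjusted p. Against SNAP-NLS, 8 of the 9 alternatives at a start compared 0 with 0 and the other 0 of 94 with 2 of 295, which says nothing of stability. The tandem share against SNAP-NLS turned to 11.0 points higher in the mutant at an IDR of 0.01, uncalled by Fisher's exact test (p = 0.225). The count of 0 among the strongest promoter peaks held in all 6 alternatives. The difference in median width, -713 bp, became -529.5 bp in the first replicate, -584 bp in repeated sequence only, -896 bp at an IDR of 0.01, and 25 bp in satellite-like peaks only. The 47 mutant places became 22 when joined within 1 Mb and 29 without the peaks at CTRL or SNAP-NLS. The share of Sp1 WT peaks at a mutant peak, 0.233%, became 0.641% within 10 kb, 3.41% in repeated sequence, 0 outside it and 0 at an IDR of 0.01, and 0.0388% without the peaks at CTRL or SNAP-NLS. The cause of these shifts was not tested. Library depth was not analysed here, so a mutant promoter signal below the calling threshold was not assessed.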
